A study of Mus musculus with 4 samples.

Results

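The enzymes that oxidise foreign chemicals and then couple them to water-soluble groups were followed in cultured mouse bladder epithelium with and without p63, a transcription factor of basal epithelial cells encoded by Trp63. A gene was a member if the platform annotation gave its transcript cluster, the array's gene-level probe group, a single symbol of the cytochrome P450 families Cyp1 to Cyp4, or of the Fmo, Aldh3, Ces, Ephx, Nqo, Gst, Ugt1, Ugt2 and Sult families. This took 87 genes, each with 1 cluster, of 14860 named genes and 23332 clusters. Another 35 clusters carried several symbols that included a family gene. Those were tested but are not named, and 0 of them passed the test.

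The samples were epithelial stem cell colonies from bladders of newborn C57BL/6j mice, grown on a layer of 3T3 mouse fibroblasts and picked for RNA. The knockout group had 2 arrays of p63 knockout colonies and the wild-type group had 2 arrays of wild-type colonies. Both groups shared the strain, the tissue, the feeder layer and the culture. The sources used here name neither the disrupted part of the gene nor the animals, and they do not say whether the 2 samples of a group came from separate pups. The p-values therefore measure the spread between these samples, which may be technical.

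Phase I enzymes add or expose a reactive group. Cytochrome P450s and flavin-containing monooxygenases (Fmo) oxygenate their substrates, carboxylesterases (Ces) and epoxide hydrolases (Ephx) add water, and the quinone reductases (Nqo) and aldehyde dehydrogenases (Aldh3) change the oxidation state of quinones and aldehydes. Phase II enzymes join the product to glutathione (Gst), glucuronic acid (Ugt) or sulfate (Sult), and export pumps carry the conjugates out. Many of these genes are most active in liver, and the bladder lining meets the same chemicals and their conjugates in urine. Genes of several of these families are controlled by NRF2 (Nfe2l2), the transcription factor of the antioxidant response, and by the aryl hydrocarbon receptor (Ahr).

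The promoters of 4 members are shown because 3 of them belong to the genes that fell, and the fourth, Sult1d1, had the largest positive difference of the 87 and lies in the same stretch of chromosome 5 as Ugt2b34. They are RefSeq sequences of build GRCm38.p6 from 250 bases before to 50 bases after the annotated start. The windows are chr3:97628769-97629068 on the plus strand for Fmo5, chr5:86906888-86907187 on the minus strand for Ugt2b34, chr1:21240335-21240634 on the plus strand for Gsta3 and chr5:87568957-87569256 on the minus strand for Sult1d1. Capitals mark matches, on either strand, to 3 motifs: the core of the antioxidant response element bound by NRF2 (TGACNNNGC), the core of the xenobiotic response element bound by the aryl hydrocarbon receptor (GCGTG) and the AP-1 site (TGANTCA).
Fmo5: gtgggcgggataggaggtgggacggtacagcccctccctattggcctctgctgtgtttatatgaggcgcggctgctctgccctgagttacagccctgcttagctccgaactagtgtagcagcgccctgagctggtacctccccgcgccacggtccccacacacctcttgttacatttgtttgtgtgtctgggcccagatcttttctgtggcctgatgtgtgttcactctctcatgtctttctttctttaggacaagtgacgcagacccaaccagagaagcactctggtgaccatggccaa
Ugt2b34: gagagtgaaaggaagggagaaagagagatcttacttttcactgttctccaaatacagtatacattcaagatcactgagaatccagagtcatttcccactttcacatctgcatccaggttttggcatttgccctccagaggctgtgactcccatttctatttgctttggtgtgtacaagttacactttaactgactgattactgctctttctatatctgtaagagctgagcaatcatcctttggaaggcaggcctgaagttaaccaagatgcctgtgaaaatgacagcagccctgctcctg
Gsta3: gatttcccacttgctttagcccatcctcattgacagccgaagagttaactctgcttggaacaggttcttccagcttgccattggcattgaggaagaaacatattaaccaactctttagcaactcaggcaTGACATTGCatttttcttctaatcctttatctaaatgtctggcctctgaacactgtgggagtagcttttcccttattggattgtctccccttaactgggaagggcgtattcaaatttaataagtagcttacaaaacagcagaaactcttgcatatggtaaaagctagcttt
Sult1d1: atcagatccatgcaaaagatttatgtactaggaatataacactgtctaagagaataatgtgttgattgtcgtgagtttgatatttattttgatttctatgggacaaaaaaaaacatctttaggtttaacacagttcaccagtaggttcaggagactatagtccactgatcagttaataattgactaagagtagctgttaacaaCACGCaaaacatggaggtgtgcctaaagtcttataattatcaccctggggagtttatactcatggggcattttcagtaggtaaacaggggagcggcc

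The Gsta3 window held 1 antioxidant element core, 121 bases before the start, and the Sult1d1 window 1 xenobiotic element core, on the opposite strand, 47 bases before the start. The windows of Fmo5 and Ugt2b34 had no match to these letters. Of all 32851 promoters of this length, 12.4% held the antioxidant element core, 32.4% the xenobiotic element core and 7.81% the AP-1 letters. A promoter was listed for 70 of the 87 members, in 85 windows, of which 8.24%, 22.4% and 12.9% held the same 3 motifs. A match describes letters in the window and nothing about binding.

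Of the 87 members, 4 fell in the knockout and 0 rose. The genes that fell were Fmo5, Ugt2b34, Gsta3 and Gsta4. They made up 4.6% of the members, against a background of 0.386% of all clusters called lower, 0.141% called higher and 0.527% called in either direction (limma, adjusted p under 0.05 over all clusters). Values below are log2 intensities, differences are knockout minus wild type, and a fold is the corresponding ratio of intensities.

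Fmo5, a flavin monooxygenase that inserts oxygen into ketones and other carbonyl compounds, was at 4.58 and 4.58 on the knockout arrays and at 9.09 and 8.95 on the wild-type arrays. The 2 knockout arrays were low and nearly equal, the 2 wild-type arrays were high, and the groups lay far apart. Fmo5 fell 21.7-fold, a log2 difference of -4.44 ± 0.17 (SE, n = 2 per group, adjusted p = 0.015), the 20th largest negative difference of all clusters. Its knockout level was below the level guide given below, so the fold may be understated. The targeted gene, Trp63, was at 4.60 and 4.74 in the knockout, also below that guide, and fell 19.9-fold (adjusted p = 0.015), with the same limit.

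Ugt2b34, a glucuronosyltransferase of the subfamily that conjugates steroids and many drugs, was at 3.80 and 3.83 in the knockout and at 6.94 and 7.20 in the wild type. Both knockout values were among the dim clusters of the array, and the groups did not overlap. Ugt2b34 fell 9.58-fold (log2 difference -3.26 ± 0.18, SE, n = 2 per group, adjusted p = 0.032), a fold that may be understated for the same reason.

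The 2 alpha-class glutathione transferases among the members both fell. Gsta3, which in the mouse detoxifies the epoxide of aflatoxin, was at 5.98 and 5.76 in the knockout and at 9.45 and 8.92 in the wild type. Gsta4, which conjugates hydroxynonenal, an aldehyde from oxidised lipids, was at 9.99 and 9.65 in the knockout and at 12.31 and 12.42 in the wild type. Gsta4 was the brightest of the 87 members and stayed bright in the knockout, whereas Gsta3 came down to within 1 log2 unit of the array medians. Their log2 differences were -3.31 ± 0.25 and -2.55 ± 0.20 (SE, n = 2 per group, adjusted p = 0.038 and 0.039).

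All 4 calls rested on the full set of arrays. With any 1 array left out, 1 group has a single array, and 0 clusters passed limma's adjusted threshold. The adjusted p of the 4 genes then ran from 0.0753 to 0.0768 without knockout array 1, from 0.0804 to 0.0812 without knockout array 2, from 0.341 to 0.424 without wild-type array 1 and from 0.337 to 0.382 without wild-type array 2. At an unadjusted p under 0.05 (limma), 39 members differed with all arrays (background 22.3% of all clusters), 19 lower and 20 higher. This is 21.8% and 23% of the members, against 7.7% and 14.6% of all clusters. In the 3-array fits the lone array is assumed to vary like the other group. The direction of the 4 genes was the same in each fit, with log2 differences between -4.52 and -4.37 for Fmo5 and between -2.71 and -2.38 for Gsta4 over all alternatives.

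**Figure D1:**
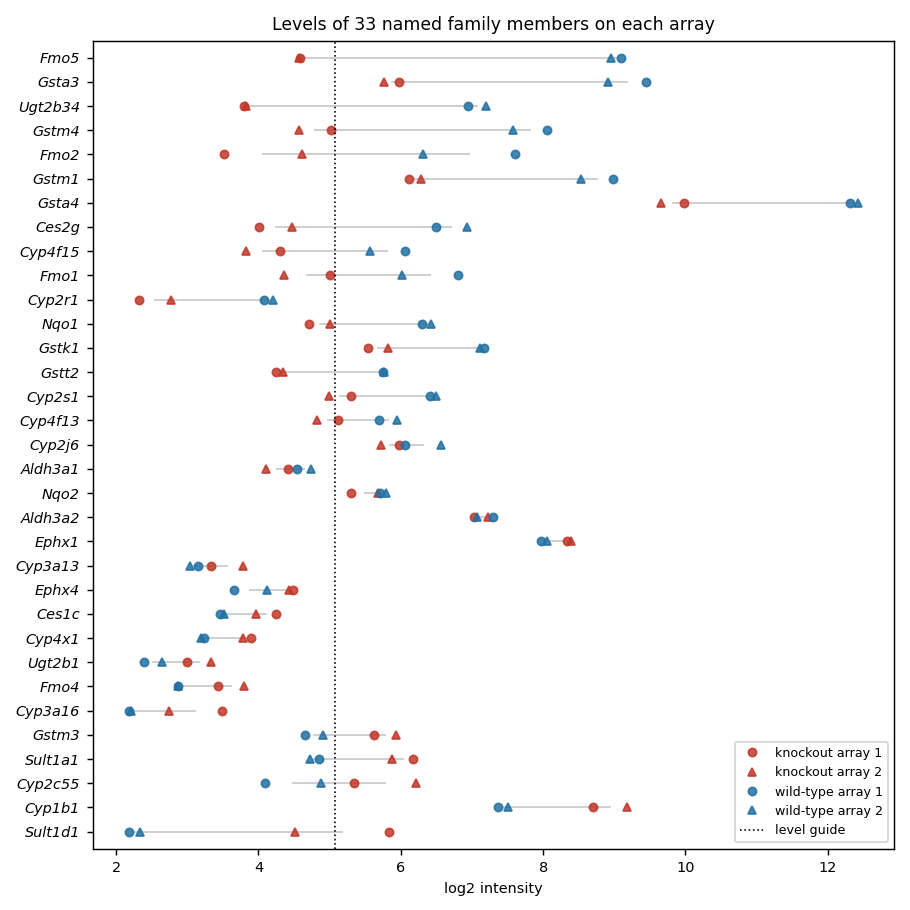
Log2 intensity (horizontal axis) of the 33 members named by rule on each of the 4 arrays, ordered by their difference. Red symbols are knockout arrays, blue symbols wild-type arrays, circles replicate 1, triangles replicate 2, grey lines join the group means, and the dotted line is the level guide at 5.08. Fmo5, Gsta3, Ugt2b34 and Gstm4 are at the top with knockout values between 3.80 and 5.98, and Sult1d1 is at the bottom with its knockout arrays at 5.84 and 4.52.

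The level of each member bears on these comparisons. Olfactory receptor genes, which bladder cells have no known use for, give a level guide: the 95th percentile of their 719 clusters was 5.08. The guide lies close to the array medians, so genes below it may still be expressed. A group mean above the guide was found for 32 members, and 55 members were at or below it in both groups. Of the 55 dim members, 44 had a positive difference, with a median of 0.38. All 10464 clusters at or below the guide had a median of 0.27, and 73.9% of them were positive. After quantile normalization 31 of the 55 were positive and their median was 0.04. A member can pass the guide through 1 group alone, so no median is given for the 32. Over all 87 the median was 0.21 as deposited and -0.0776 after quantile normalization, against 0.12 and 0.0029 for all clusters. Small positive differences of dim members below are therefore given as values only.

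In all, 25 members were lower on both knockout arrays than on either wild-type array, 40 were higher on both, and 22 overlapped. This is 28.7% and 46% of the members, against 20.9% and 36.2% of all clusters. After quantile normalization the counts were 31 lower, 17 higher and 39 overlapping. Among groups that did not overlap and differed by at least 1 on the log2 scale, 16 members were lower and 6 higher, which is 18.4% and 6.9%, against 3.67% and 6.96% of all clusters (10.6% in either direction). Quantile normalization gave 18 and 4. Shares of all clusters without overlap were not counted after quantile normalization, so the shares above apply to the deposited values only. After it 47.1% of the members and 50.3% of all clusters had a positive difference, against 62.1% and 60.3% as deposited.

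**Figure D2:**
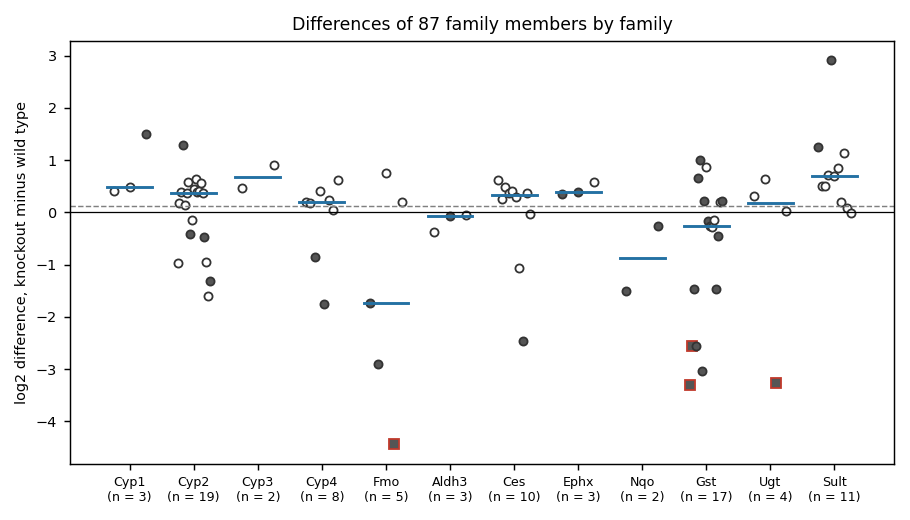
Log2 difference, knockout minus wild type (vertical axis), of each of the 87 members by family. Squares outlined in red passed the test, filled symbols have a group mean above the level guide, open symbols do not, blue bars are family medians and the dashed line is the median of all clusters, 0.12. The squares are Fmo5 at -4.44, Gsta3 at -3.31, Ugt2b34 at -3.26 and Gsta4 at -2.55, and the highest point is Sult1d1 at 2.92.

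Among the flavin monooxygenases, Fmo5 fell and the other 4 measured members did not pass. Fmo1 and Fmo2, which oxygenate nitrogen and sulfur atoms of drugs, were also low in the knockout. Fmo1 was at 5.002 and 4.36 in the knockout and at 6.80 and 6.02 in the wild type (log2 difference -1.73, adjusted p = 0.13). Fmo2, the main form of rodent lung, was at 3.52 and 4.61 against 7.61 and 6.31 (-2.89, adjusted p = 0.12). The groups did not overlap for either gene, but their replicates were spread more widely than those of Fmo5. Fmo4 was at 3.43 and 3.80 against 2.86 and 2.87, and Fmo9 at 3.80 and 3.52 against 3.39 and 3.55, all below the guide.

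Endothelial transcripts differed between the same arrays. Of 10 measured endothelial markers, 5 were lower on both knockout arrays, 1 was higher, and 0 passed the test. This is 50% and 10%, against 20.9% and 36.2% of all clusters. In the wild type 9 of the 10 had their higher value on array 1, with a median gap to array 2 of 0.61. The summed linear intensity of the 10 was 208.7 and 186.5 in the knockout and 515 and 299.7 in the wild type. Pecam1, which encodes an endothelial adhesion molecule, was at 4.63 and 4.29 against 6.94 and 5.67, the same order of arrays in the wild type as Fmo1 and Fmo2. Pecam1 and Cdh5, another endothelial adhesion gene at 4.02 and 4.24 against 6.13 and 5.26, were below the guide on both knockout arrays. Fmo5 differed by 0.14 between the wild-type arrays, with array 1 higher. That order was not particular to Fmo1 and Fmo2. Gsta3 had it too, at 9.45 and 8.92, as did Gstm1 and Gstm4, whereas Ugt2b34, Gsta4 and Ces2g were higher on array 2. The share of all clusters higher on wild-type array 1 was not counted. Most fibroblast and smooth muscle markers were also higher on wild-type array 1, 9 of 13 and 8 of 9, with median gaps of 0.57 and 0.35. Of the fibroblast markers, the proteoglycan gene Lum was at 4.02 and 2.66 against 6.36 and 4.98, and Dcn, another, at 8.92 and 9.02 against 10.89 and 9.95. Vim, of the same list, was higher on both knockout arrays, at 9.71 and 10.39 against 9.06 and 9.18. Between the groups 8 of the 13 fibroblast markers overlapped, against 5166 of the 12868 clusters above the level guide, where all 13 lay. The part of these cell types in the Fmo1 and Fmo2 values was not tested. In bulk samples, fewer cells of a type and less RNA per cell cannot be told apart.

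**Figure D3:**
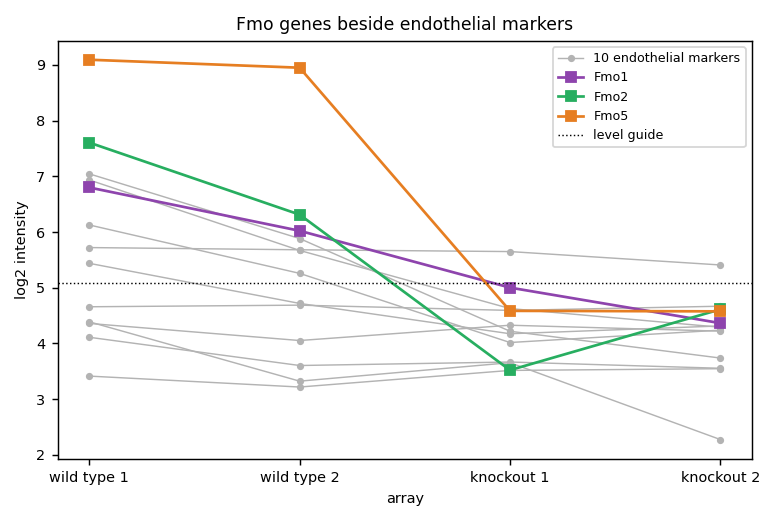
Log2 intensity (vertical axis) of Fmo1, Fmo2 and Fmo5 (coloured lines) and 10 endothelial markers (grey lines) on the 4 arrays, with the level guide dotted. Fmo2 goes from 7.61 to 6.31 between the wild-type arrays as several endothelial markers do, and Fmo5 is at 9.09 and 8.95.

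None of the 32 P450 genes of families 1 to 4 passed the test, and 25 of them were at or below the level guide in both groups. Those above it in a group had differences of both signs. Cyp1b1, which hydroxylates estradiol and activates polycyclic hydrocarbons, was the brightest, at 8.71 and 9.18 in the knockout and at 7.36 and 7.51 in the wild type. It was higher on both knockout arrays by 1.50 ± 0.23 (SE, n = 2 per group, adjusted p = 0.090). The fibroblast and feeder list of 13 measured genes had 0 calls, with 1 member higher and 4 lower without overlap. This is 7.69% and 30.8%, against 29.4% and 30.5% of all clusters above the level guide, where all 13 lay. The summed linear intensity of the list was 5708 and 8002 in the knockout and 7663 and 6794 in the wild type, so that the groups overlapped. Knockout array 2, where Cyp1b1 was higher, had 11 of those 13 genes above array 1. The part of fibroblasts in the Cyp1b1 level was not tested. Its relatives Cyp1a1 and Cyp1a2, the classical aryl hydrocarbon receptor targets, were below the guide on all arrays, Cyp1a1 at 4.12 and 3.62 against 3.73 and 3.19.

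Lower in the knockout were Cyp2s1, a P450 of epithelia, and Cyp4f15, of a family of fatty acid hydroxylases. Cyp2s1 was at 5.31 and 4.99 against 6.41 and 6.49 (-1.30, adjusted p = 0.085), and Cyp4f15 at 4.30 and 3.83 against 6.06 and 5.56 (-1.75, adjusted p = 0.094). Neither passed, and in both the replicates of a group lay closer together than the groups. Cyp4f13, from the same locus on chromosome 17, was at 5.12 and 4.82 against 5.69 and 5.95 (-0.85). Cyp2r1, the microsomal vitamin D hydroxylase, was dim throughout, at 2.31 and 2.77 against 4.08 and 4.21 (-1.60, adjusted p = 0.081). Cyp2j6, the brightest Cyp2 member, was at 5.97 and 5.72 against 6.06 and 6.57 and differed by -0.47. Cyp2c55, which oxidises arachidonic acid in the mouse colon, was at 5.34 and 6.21 against 4.09 and 4.89 (1.29, adjusted p = 0.21), with the widest spread of these. Cyp4b1, a P450 of rodent bladder known for activating aromatic amines, was at 4.68 and 4.91 in the knockout and 4.61 and 4.61 in the wild type, below the guide in both. Of the 19 Cyp2 genes, 15 were dim, with 10 higher and 5 lower without overlap among all 19. This is 52.6% and 26.3%, against 36.2% and 20.9% of all clusters (44.5% higher among those at or below the guide). Cyp2b10, the liver target of the receptor encoded by Nr1i3, was at 3.74 and 3.80 against 4.67 and 4.79 (-0.96, adjusted p = 0.097). Cyp2e1, which oxidises ethanol and small solvents, was dim at 3.93 and 3.74 against 3.38 and 3.51. Cyp2d22 was the brightest of 6 Cyp2d genes and overlapped, at 5.04 and 4.79 against 5.69 and 4.99. Cyp4x1 had the largest positive difference of the 8 Cyp4 genes and was dim, at 3.89 and 3.79 against 3.24 and 3.19. The Cyp3 family had 2 members, Cyp3a13 and Cyp3a16, which were dim on all arrays, at or below 3.78.

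None of the 10 carboxylesterases passed the test. Ces2g, an intestinal-type esterase of ester drugs and lipids, was at 4.01 and 4.47 in the knockout and at 6.49 and 6.93 in the wild type (-2.47 ± 0.27, SE, n = 2 per group, adjusted p = 0.063). Ces2b, from the same locus on chromosome 8, was at 3.36 and 3.52 against 4.59 and 4.43 (-1.07, adjusted p = 0.095). These were the 2 carboxylesterases lower without overlap, which is 20%, against 20.9% of all clusters. Another 6 were higher without overlap, which is 60%, against 36.2% of all clusters and 44.5% of those at or below the guide. Only Ces2g exceeded the level guide. Ces2a, also in that locus, was dim in all arrays, at 4.30 and 4.23 against 4.07 and 3.88. The 5 measured Ces1 genes, liver-type esterases, were all at or below 4.25, with differences from 0.26 (Ces1d, -0.10 after quantile normalization) to 0.62, the last that of Ces1c, at 4.25 and 3.97 against 3.46 and 3.51.

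Quinone reductase Nqo1, a standard NRF2 target, was lower on both knockout arrays, at 4.72 and 5.01 against 6.30 and 6.42 (-1.50 ± 0.19, SE, n = 2 per group, adjusted p = 0.073). Nqo2, its relative that uses a different cofactor, was at 5.30 and 5.68 against 5.71 and 5.79. The epoxide hydrolases had small positive differences. Ephx1, the microsomal enzyme, was at 8.34 and 8.39 against 7.97 and 8.06, a difference of 0.35 with replicates within 0.09 (adjusted p = 0.30). Ephx2, the soluble enzyme, was at 5.56 and 5.65 against 5.20 and 5.24, and Ephx4 was below the guide at 4.48 and 4.43 against 3.65 and 4.11. Of the 3 Aldh3 genes, Aldh3a2, the fatty aldehyde dehydrogenase, overlapped between groups at 7.02 and 7.22 against 7.29 and 7.07. Aldh3a1, the aldehyde dehydrogenase of the cornea, was at 4.42 and 4.11 against 4.54 and 4.74.

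**Figure D4:**
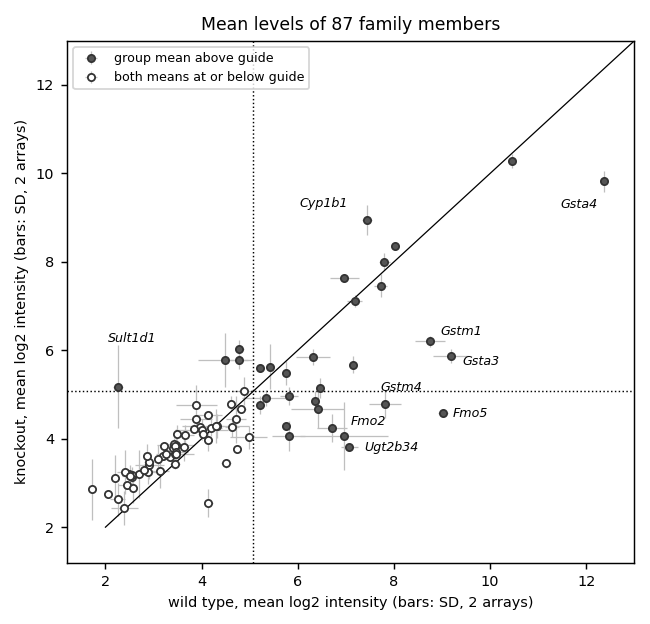
Mean log2 intensity of each of the 87 members in the knockout (vertical axis) against the wild type (horizontal axis), with SD bars over 2 arrays, the line of equality and the level guide at 5.08 (dotted). Gsta4, Gsta3, Gstm1, Gstm4, Fmo5 and Ugt2b34 lie far below the line, Cyp1b1 and Sult1d1 lie above it, and most open symbols (means at or below the guide) sit slightly above it.

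Of 17 measured glutathione transferases, the alpha-class pair fell and 15 did not pass. None of the 6 mu-class genes, which lie in 1 cluster on chromosome 3, passed. Gstm1, the prototype of the class, was at 6.11 and 6.28 in the knockout and at 8.98 and 8.54 in the wild type (-2.56 ± 0.23, SE, n = 2 per group, adjusted p = 0.051). Gstm4 was at 5.01 and 4.57 against 8.06 and 7.58 (-3.03 ± 0.27, SE, n = 2 per group, adjusted p = 0.051). Both just missed the threshold, with groups far apart on every array. The 4 genes on the other side of Gstm1 in map order had positive differences, and 3 of them did not overlap. Of the 6 mu-class genes 50% were higher and 33.3% lower without overlap, against 36.2% and 20.9% of all clusters. Gstm2 was at 7.66 and 7.59 against 7.18 and 6.76, Gstm3 at 5.63 and 5.93 against 4.65 and 4.91 (1.00, adjusted p = 0.12), and Gstm7 at 5.09 and 4.44 against 4.20 and 3.58. Gstm5 overlapped, at 8.15 and 7.86 against 7.88 and 7.72. Mu-class genes resemble each other closely, and the sources used here do not say how probes that match several of them were treated, so each level is uncertain to that extent.

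Other classes showed smaller differences. Gstk1, the kappa-class enzyme of mitochondria and peroxisomes, was at 5.54 and 5.82 against 7.17 and 7.12 (-1.47, adjusted p = 0.073). Gstt2 of the theta class was at 4.25 and 4.35 against 5.75 and 5.77 (-1.46, adjusted p = 0.064), while its neighbours Gstt1 and Gstt3 differed by -0.14 and -0.45 and Gstt4 overlapped. In Gstt2 the replicates were within 0.10 in both groups. Gsto1, an omega-class enzyme that also reduces arsenic compounds, was bright and nearly level at 10.40 and 10.17 against 10.45 and 10.45, and Gsto2 was at 7.27 and 7.65 against 7.62 and 7.82. Gstz1, which also works in tyrosine breakdown, overlapped between groups at levels from 5.27 to 5.98. Gstp3 of the pi class was dim, at 4.82 and 4.06 against 4.86 and 4.57.

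Of 11 sulfotransferases, 0 passed. On both knockout arrays 8 were higher, which is 72.7%, against 36.2% of all clusters and 44.5% of those at or below the level guide, and 0 were lower without overlap. The family median was 0.70 as deposited and 0.19 after quantile normalization (0.69 and 0.25 for the Cyp3 pair), and 9 of the 11 were at or below the level guide. Sult1d1, which sulfates catecholamines in the mouse, was at 5.84 and 4.52 in the knockout and at 2.18 and 2.34 in the wild type. The groups did not overlap, but the knockout arrays differed from each other by 1.32. The log2 difference was 2.92 ± 0.49 (SE, n = 2 per group, adjusted p = 0.096), and it was 2.26 without knockout array 1 and 3.58 without knockout array 2. Sult1a1, the phenol sulfotransferase that also activates hydroxylated aromatic amines, was at 6.18 and 5.88 against 4.85 and 4.72 (1.24 ± 0.19, SE, n = 2 per group, adjusted p = 0.090). Its replicates were close in both groups. Sult2b1, which sulfates cholesterol in stratified epithelia, was near the guide in all arrays, at 5.30 and 4.85 against 5.05 and 4.71.

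The stretch of chromosome 5 that holds Ugt2b34 holds 7 members in all. In map order they are Ugt2b34, Ugt2b1, Ugt2b35, Ugt2a3, Sult1b1, Sult1d1 and Sult1e1. Ugt2b34 fell at one end, Sult1d1 had the largest positive difference near the other end, and the 5 others were at or below 3.33 on all arrays with differences from 0.04 to 0.70. After quantile normalization Ugt2b35 went from 0.04 to -0.46 and Ugt2a3 from 0.31 to -0.17. Among the 4 measured Ugt genes, 1 fell and 3 were dim. The Ugt1a genes, whose isoforms share exons, had no cluster with a single symbol and are not among the members.

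**Figure D5:**
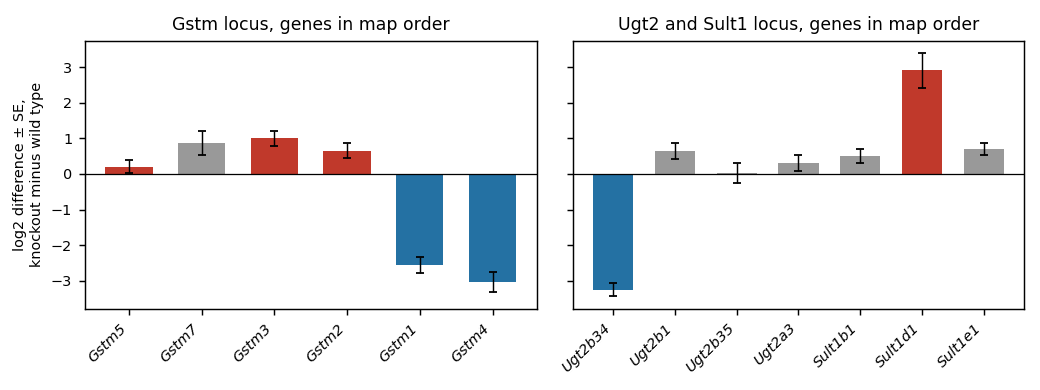
Log2 difference ± SE, knockout minus wild type (vertical axis), of the members of the Gstm locus and of the Ugt2 and Sult1 locus in map order. Blue and red bars are negative and positive differences of members above the level guide, grey bars are members at or below it. Gstm1 and Gstm4 are at -2.56 and -3.03 beside Gstm3 at 1.00, and Ugt2b34 at -3.26 shares its locus with Sult1d1 at 2.92.

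Genes around the families were read from lists outside the rule. Among 26 regulators 0 passed in either direction. Ahr itself was at 7.66 and 7.64 in the knockout and 7.72 and 7.83 in the wild type. Nfe2l2, which encodes NRF2, was at 8.94 and 8.79 against 9.37 and 9.35 (-0.49, adjusted p = 0.21), and Keap1, its inhibitor, overlapped. The nuclear receptor gene Pparg, a regulator of urothelial differentiation, had the largest difference of the list, at 5.44 and 6.34 against 8.63 and 8.64 (-2.75, adjusted p = 0.072). The liver xenobiotic receptors Nr1i2 and Nr1i3 were below the guide on all arrays. Tiparp, an aryl hydrocarbon receptor target, was at 8.55 and 8.18 against 7.50 and 7.34, and Mafg, a partner of NRF2, at 7.45 and 7.43 against 6.36 and 6.67, neither past the threshold.

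Of 18 measured NRF2 targets outside the families, 0 passed, 9 were lower without overlap and 2 higher. This is 50% and 11.1%, against 30.5% and 29.4% of all clusters above the level guide, where 17 of the 18 lay. The list median was -0.32, against -0.0097 for those clusters. Akr1b8, an aldose reductase relative, was at 8.09 and 8.58 against 10.09 and 10.44 (-1.93, adjusted p = 0.077). Gpx2, an epithelial glutathione peroxidase, was at 6.51 and 7.57 against 8.76 and 8.95 (-1.82, adjusted p = 0.13). Slc7a11, the cystine carrier, was at 5.39 and 6.02 against 7.21 and 7.35 (-1.58, adjusted p = 0.097). The list was not uniform, since Hmox1, haem oxygenase, was at 7.22 and 7.17 against 6.47 and 6.38 (0.77, adjusted p = 0.12). Hmox1 was chosen after its values were seen.

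Of 14 genes that supply electrons or cosubstrates, all above the level guide in at least 1 group, 0 passed, 9 were lower without overlap and 3 higher, which is 64.3% and 21.4% against the same 30.5% and 29.4%. Gclc, which encodes the rate-limiting subunit for glutathione, was at 7.72 and 7.95 against 8.92 and 8.66, and Ugdh, which makes the glucuronic acid donor, at 7.996 and 8.03 against 9.07 and 8.82. Both were lower on each knockout array by about the same amount (-0.96 and -0.93, adjusted p = 0.12 and 0.11). Gclc, Ugdh, Gsr and Gss are also in the NRF2 list, and all were lower without overlap. The counts of these lists therefore share genes and are not separate observations. Papss2, which makes the sulfate donor, was higher on both knockout arrays, at 5.44 and 5.90 against 4.15 and 4.25 (1.47, adjusted p = 0.088). Of 26 export and uptake carriers, 0 passed, 13 were higher without overlap and 4 lower, which is 50% and 15.4%, against 36.2% and 20.9% of all clusters. At or below the guide lay 15 of the 26, and of all clusters there 44.5% were higher. The efflux pump gene Abcb1b was at 8.23 and 6.77 against 5.20 and 5.53 (2.14, adjusted p = 0.15), with knockout array 1 well above array 2. The uptake carrier genes Slc22a4, at 6.08 and 5.50 against 4.74 and 4.93, and Slco1a1, dim at 3.65 and 3.65 against 2.48 and 2.49, were likewise higher on both knockout arrays without passing.

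Of 35 other drug-metabolising enzymes, 1 fell and 0 rose. The 1 is 2.86% of the list, against 0.386% of all clusters called lower and 0.141% called higher. The gene that fell was Adh1, an alcohol and retinol dehydrogenase, at 5.06 and 5.01 against 11.40 and 11.27 (adjusted p = 0.015). Aldh1a2, a retinaldehyde dehydrogenase, was at 4.73 and 4.73 against 8.30 and 7.13 (-2.99, adjusted p = 0.082). It was higher on wild-type array 1, as were most endothelial, fibroblast and smooth muscle markers. The part of these cell types in the Aldh1a2 level was not tested. Akr1c18, a steroid reductase, was at 8.44 and 4.11 against 2.72 and 2.39. Both knockout arrays were above both wild-type arrays, but they differed from each other by more than the group means did, so the size of the difference, 3.72, depends on knockout array 1 (adjusted p = 0.25). Of 15 P450s of other families, 0 passed. Cyp26a1, of retinoic acid breakdown, was at 4.95 and 4.12 against 3.00 and 3.43, Cyp27a1, of bile acid synthesis, at 5.18 and 4.36 against 5.92 and 5.84, and Cyp7a1, the rate-limiting enzyme of bile acid synthesis, was dim at 3.74 and 4.17 against 3.39 and 3.34.

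The labelled cell type was checked on the same arrays. All 12 measured epithelial markers exceeded the level guide in at least 1 group. Krt18, a keratin of simple epithelia, was between 10.63 and 11.32 on every array, and Epcam between 8.55 and 8.92. Krt18 was lower on both knockout arrays, as were Cdh1, Krt19 and Cldn4, and Epcam was higher on both. The basal keratins Krt5 and Krt14 and the uroplakins Upk1a, Upk1b, Upk2 and Upk3a, which define basal and superficial urothelium, fell, and were the 6 of 12 that passed. Of the 12, 10 were lower on both knockout arrays and 2 were higher on both. This is 83.3% and 16.7%, against 30.5% and 29.4% of all clusters above the level guide. The summed linear intensity of the 12 was 4257 and 3707 in the knockout and 16150 and 17580 in the wild type. The part of these markers in the differences of the enzyme genes was not tested. None of 6 measured hepatocyte markers exceeded the guide, with Alb between 3.70 and 4.13, and 0 of them passed. Smooth muscle markers (9 measured) and leukocyte markers (9 measured) had 0 calls. The summed linear intensity of the smooth muscle list was 506.2 and 581.3 in the knockout and 478.3 and 320.2 in the wild type, and that of the leukocyte list 516.2 and 415.6 against 356.2 and 280.1. Both sums were higher on each knockout array than on either wild-type array, but the brightest genes weigh most in such sums. Those were Acta2, at 7.11 and 7.87 against 6.87 and 5.64, and Cd68, at 8.58 and 8.12 against 7.68 and 7.26. Cd68 was the only leukocyte marker above the level guide. Without overlap, 44.4% of the smooth muscle markers were higher and 0% lower. For the leukocyte markers it was 55.6% and 22.2%, against 36.2% and 20.9% of all clusters. The part of these cell types in the differences of the enzyme genes was not tested.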

How the data were processed

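RNA of 4 colony samples was labelled with biotin and hybridised to Affymetrix Mouse Exon 1.0 ST arrays, 1 per sample. The authors deposited gene-level log2 intensities for 23332 transcript clusters, made with Affymetrix Expression Console and Partek on build mm9, per the submitters' processing notes. For versions, summarisation and any normalization the sources used here give nothing. Medians of the arrays were 5.08 to 5.13, with lower quartiles of 4.06 on the knockout arrays and of 3.80 to 3.82 on the others. Scanner files and detection calls were not used here, and the number of arrays limits the precision.

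Symbols came from GEO's platform annotation, which gave 14996 clusters 1 symbol, 1019 several and listed none for 7317. All 87 members matched a RefSeq table of GRCm38 by Entrez identifier, and 0 symbols changed. That table was used for chromosome and gene order only. Members within 10 protein-coding genes of the last one were counted as 1 locus.

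The test was limma's moderated fit (version 3.58.1, R 4.3.3) of knockout against wild type, two-sided and without covariates, with 2 residual and 2.2 prior degrees of freedom. Calls passed 0.05 after Benjamini-Hochberg adjustment across the whole table. The fit was tested on simulated data. The replicate numbers have no stated pairing. An exact permutation of 2 against 2 arrays cannot pass 0.05.

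The members and lists were chosen with earlier results of these data known. Members named are the calls, the brightest member and the largest non-overlapping rise and fall of each family, and non-overlapping members above the level guide that differ by at least 1. Of the other lists except the cell type markers, calls and the 3 largest non-overlapping differences are named. The cell type markers named are not all those that this rule would give. Further genes described fall outside this rule and were chosen after their values were seen. They are relatives or map neighbours of named members, the receptors and regulators named with them, Cyp4b1, and cell type markers. Alternatives were quantile and cyclic loess normalization, a filter at the 25th percentile of mean level, an intensity trend, a replicate block and leaving out each array.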

Additional observations from a re-analysis of the deposited data

How the results depend on the processing

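Directions of the 33 members named by rule held under the alternatives run for each, except Aldh3a2, at -0.06 in the full fit, which ran from -0.169 to 0.0479 when 1 replicate was left out. Of all 87 members, 21 changed sign under at least 1 alternative, none of them among the 22 that differed by at least 1, and quantile normalization turned 13, such as Gstt4 (0.20 to -0.01), Fmo9 (0.19 to -0.15) and Ugt2b35 (0.04 to -0.46). The calls among members, all lower, numbered 4 of 87 as reported and the same 4 after quantile normalization and cyclic loess, where 105 and 115 clusters passed in all. They were 8 of 87 with an intensity trend (303 of 23332 clusters in all). Without clusters under the 25th percentile they were 10 of 50 members (362 of 17499 clusters in all). Both sets included the same 4, with 0 higher. Without any 1 replicate, 0 members were called in each fit. The count with no overlap and a difference of at least 1 was 22 and ran from 19 to 23. Its share of all clusters was counted for the full fit only, at 10.6%.

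With the replicate number as a block, 0 members and 0 clusters passed (limma, 1 residual degree of freedom, lowest member adjusted p 0.118). In that fit 34 members had an unadjusted p under 0.05, and the share of all clusters was not counted. The deviations of same-numbered arrays correlated at 0.02. With so few arrays per group this value cannot decide whether same-numbered arrays were paired, and no pairing is stated.

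Family medians moved with the scaling of dim clusters. By quantile normalization and cyclic loess they were -0.0776 and -0.0592 for all members, 0.0299 and 0.0188 for Ces, 0.0894 and 0.073 for Cyp1, -0.11 and -0.14 for Cyp2, 0.25 and 0.24 for Cyp3, -0.11 and -0.13 for Cyp4, 0.19 and 0.17 for Sult and -0.31 and -0.33 for Ugt. Without clusters under the 25th percentile, which removes 37 dim members, they were -0.21 for all members, -1.07 for Ces, 1.50 for Cyp1, -0.42 for Cyp2, -0.40 for Cyp4, -2.89 for Fmo, 0.14 for Sult and -3.26 for Ugt. A member can pass this filter through 1 group alone, so these medians partly reflect the filter and are not read as family results. Those of Cyp1 and Ugt are the values of Cyp1b1 and Ugt2b34 alone. Leaving out 1 replicate gave 0.265 to 0.342 for Ces, 0.215 to 0.321 for Cyp2, -0.0062 to 0.249 for Cyp4 and -0.0791 to 0.429 for Ugt. The cause was not tested beyond the construction of each alternative. Every member had 1 cluster, so averaging the clusters of a gene left all values as they were. Clusters near background limit what can be read from 55 of the 87 members.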
